A study of Caenorhabditis elegans with 2 samples.

Results

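Splicing factor protein genes were taken as every gene whose Ensembl WBcel235 symbol starts with rsp-, snr-, lsm-, prp-, sftb- or uaf- followed by a digit. There were 40 such genes among 19973 protein coding genes on the nuclear chromosomes, and all 40 were annotated as protein coding. They comprised 8 SR protein genes (rsp), 7 Sm protein genes (snr), 7 LSm protein genes (lsm), 13 PRP factor genes (prp), 3 SF3b subunit genes (sftb) and 2 U2AF subunit genes (uaf). The rule goes by name, so it also takes in lsm-1, whose yeast and human counterparts act in cytoplasmic mRNA decay. None of the 40 lay on chromosome X.

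The assay was chromatin immunoprecipitation with sequencing (ChIP-seq) on whole Caenorhabditis elegans at the L3 larval stage, of both sexes pooled, per the labels. The strain, OP353, is described by the labels as unc-119(tm4063) III with wgIs353, and eGFP-nhr-77 is named as the target. NHR-77 belongs to the nuclear hormone receptors, a large family of DNA-binding transcription factors in nematodes. The labels give nhr-77 as the antibody, so whether the tag or the protein was recognised is not settled here, and they do not say what drives the tagged gene. There was 1 group of 2 biological replicates and no second condition. No test was therefore made, and each share or median is set beside that of the other protein coding genes in the same libraries.

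Splicing removes introns from pre-mRNA on the spliceosome, which is built from small nuclear ribonucleoproteins (snRNPs). Sm proteins form the ring on most spliceosomal snRNAs, and LSm proteins form the ring on U6. SR proteins bind exonic RNA and recruit the U1 snRNP and U2AF, U2AF marks the 3′ splice site, and SF3b holds the U2 snRNP at the branch point. PRP factors act through the assembly and catalytic steps. In C. elegans the machinery also joins a short spliced leader to many mRNAs by trans-splicing, and many genes are transcribed in operons, with 1 promoter serving several genes.

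Peaks were the authors' own calls on the assembly ce11, and the read depth behind them is unknown. The relaxed list of the pool and that of each replicate held 30000 peaks, and the list that passed the IDR (irreproducible discovery rate, which weighs how alike peaks rank in replicates) held 590. A peak's signal is the authors' enrichment value, whose scale differs between lists. In the pool it ran from 5.53 to 426.8, and the lowest IDR peak had 28.9. For each gene the strongest peak was taken whose summit lay between 1000 bp upstream and 500 bp downstream of a 5′ end of any of its transcripts, here called the promoter window. A replicate's value is that of the strongest summit in the same window, which need not be at the place of the pooled one.

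The sequences below are the 101 bases centred on the summits that the results turn on. They are the 4 IDR summits and the 3 strongest summits that pairs of splicing genes share. They were read from the WBcel235 assembly, 5′ to 3′ on the strand of the gene named first. Capitals mark TTCGCG, one of 5 motifs searched, and none of the other 4 occurs in these stretches.

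snr-4 (chrV:11980244-11980344, minus strand): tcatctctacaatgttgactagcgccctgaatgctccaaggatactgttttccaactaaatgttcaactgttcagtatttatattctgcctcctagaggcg
prp-19 (chrIII:5172621-5172721, minus strand): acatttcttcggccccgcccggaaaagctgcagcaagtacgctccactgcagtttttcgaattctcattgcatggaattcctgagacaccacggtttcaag
rsp-6 (chrIV:7791390-7791490, minus strand): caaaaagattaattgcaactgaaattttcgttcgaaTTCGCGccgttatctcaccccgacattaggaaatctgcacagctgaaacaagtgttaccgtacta
lsm-3 (chrIV:13388860-13388960, plus strand): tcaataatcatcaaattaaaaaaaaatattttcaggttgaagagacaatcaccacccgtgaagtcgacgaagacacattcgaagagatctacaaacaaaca
rsp-7 and snu-13 (chrII:10658872-10658972, plus strand): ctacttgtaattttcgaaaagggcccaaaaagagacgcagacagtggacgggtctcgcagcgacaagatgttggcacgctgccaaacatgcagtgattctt
rsp-1 and rsp-2 (chrII:11453132-11453232, plus strand): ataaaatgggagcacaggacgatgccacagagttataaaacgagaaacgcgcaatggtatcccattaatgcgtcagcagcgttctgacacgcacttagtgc
rsp-5 and snr-3 (chrII:6489916-6490016, plus strand): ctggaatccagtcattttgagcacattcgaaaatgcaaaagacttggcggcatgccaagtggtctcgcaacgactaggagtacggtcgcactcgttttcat

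Of the 40 genes, 31 (77.5%) had a pooled summit in the promoter window, compared with 9058 of 19933 other protein coding genes (45.4%). An IDR summit was present at 4 of the 31 (12.9%), namely snr-4, lsm-3, prp-19 and rsp-6, where 5.48% of the 9058 other genes had one. With a window of 500 bp on either side it was 2 of 26 (7.69%) beside 5.43%, without snr-4 and prp-19. Counted over all 40 genes the share was 10%, and over all 19933 others it was 2.49%. The median strongest signal over the 31 was 15.1, with quartiles of 10.2 and 21.8, and over the other genes it was 9.53, with quartiles of 7.24 and 13.7. A total of 23 of the 31 lay above the median of the other genes. These are descriptions of 1 experiment, and a gene without any pooled summit enters no median.

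The 2 groups of genes were also set side by side as more pooled peaks were taken. Both shares are small at the top of the ranking and 100% at its end. The gap between them is therefore bound to be small at both ends, and its size along the ranking is not read as a result. Within the 295 strongest pooled peaks only snr-4 was reached, which is 3.23% of the 31, and 2.97% of the other genes were reached. Genes that share a summit were each counted, in both groups. Within 1180 peaks 8 of the 31 were reached (25.8%), at 7 distinct summits, and 9.74% of the others. Within 5000 peaks the shares were 67.7% (21 genes at 19 distinct summits) and 28.7%. Most of the 31 genes were thus within the strongest 5000 peaks, and few were within the strongest 590.

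**Figure D1:**
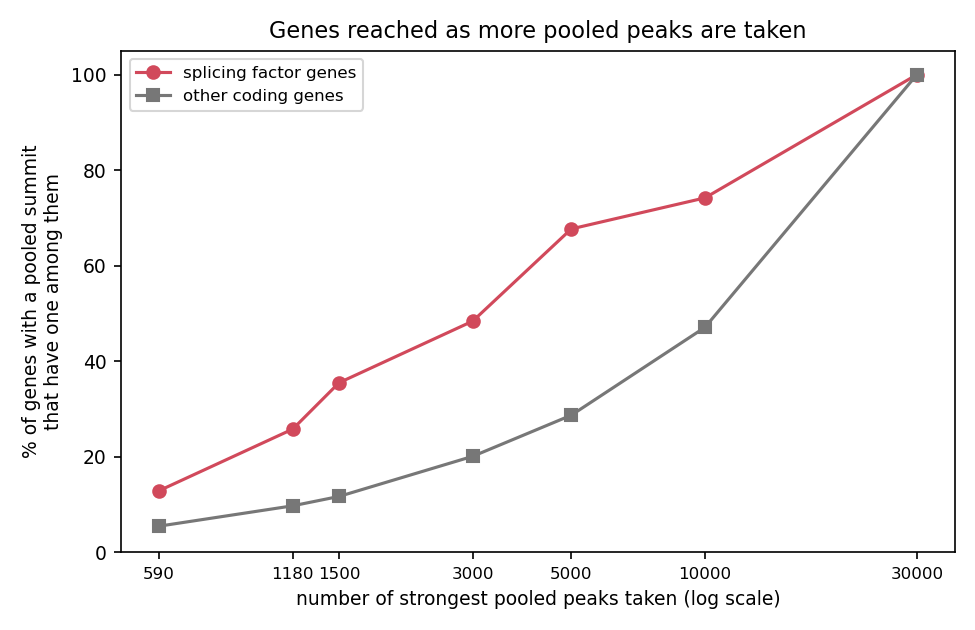
Share of genes with a pooled summit that have one among the strongest pooled peaks, by the number of peaks taken (log axis), for the 31 splicing factor genes (circles) and 9058 other protein coding genes (squares). The shares were 12.9% and 5.48% at 590 peaks, 48.4% and 20.1% at 3000, and both 100% at 30000 by construction. Genes that share a summit are each counted.

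**Figure D2:**
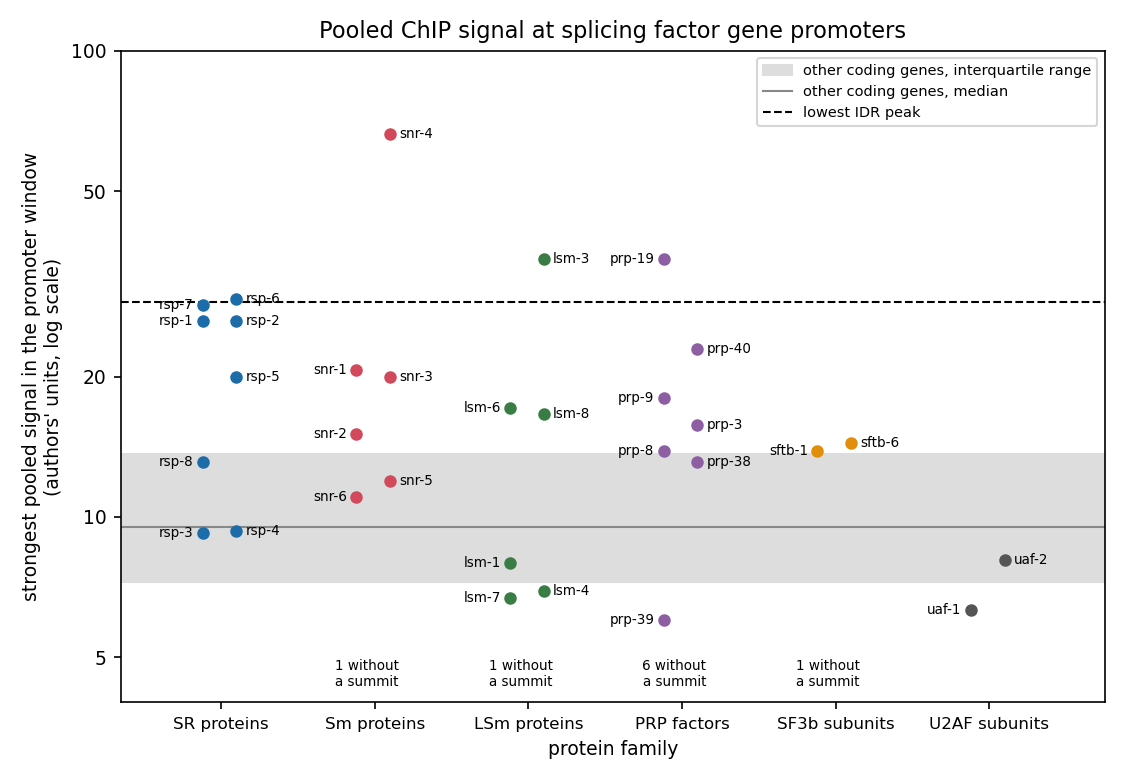
Strongest pooled signal in the promoter window of each splicing factor gene (log axis, authors' units), 1 point a gene, by protein family. The grey band is the interquartile range of the other protein coding genes (7.24 to 13.7), the grey line their median (9.53) and the dashed line the lowest IDR peak (28.9). The 4 genes above the dashed line are snr-4, lsm-3, prp-19 and rsp-6, and 9 genes had no summit.

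Among the SR protein genes, all 8 had a pooled summit, and 6 of the 8 had a signal above the median of other coding genes. Their median was 23.2. The strongest was rsp-6, the counterpart of the mammalian SRSF3, on chromosome IV (peak 7791268 to 7791611). Its signal was 29.4 in the pool, 18.9 in replicate 1 (rank 390) and 9.26 in replicate 2 (rank 2724), and the summit within 100 bp of the pooled one had 8.44 in replicate 2. It thus ranked higher in replicate 1. The rsp-6 summit lay 211 bp upstream of its 5′ end, between rsp-6 and the neighbouring C33H5.13 on the same strand.

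The gene just below the limit was rsp-7, on chromosome II (10658750 to 10659093), which encodes an SR protein of the SRp54 type. Its signal was 28.4 in the pool, 11.95 in replicate 1 (rank 1409) and 19.0 in replicate 2 (rank 380). Here replicate 2 was the higher by rank, the opposite of rsp-6. The summit lay 284 bp upstream of rsp-7 and 296 bp upstream of snu-13, which runs the other way and encodes a protein that binds U4 snRNA. It also fell inside a short noncoding RNA gene, M28.13, 25 bp from the 5′ end of that gene.

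The neighbouring rsp-1 and rsp-2 on chromosome II share 1 divergent promoter and therefore 1 peak (11453010 to 11453353). Its summit lay 180 bp upstream of rsp-1 and 227 bp upstream of rsp-2. The signal was 26.4 in the pool, 10.5 in replicate 1 (rank 2066) and 19.1 in replicate 2 (rank 374). This peak was among the strongest 590 in replicate 2 and not in replicate 1, as was that of rsp-7.

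The remaining SR genes differed widely. At rsp-5, which encodes a second SC35-type SR protein, the signal was 19.95 in the pool, 4.91 in replicate 1 and 15.3 in replicate 2. At rsp-8 it was 13.1, 8.33 and 8.14, with similar values in both replicates and a summit 678 bp upstream. The counterparts of the best studied mammalian SR proteins were the lowest of the family. They were rsp-3, the SRSF1 (SF2/ASF) gene, with 9.24 in the pool, 12.5 in replicate 1 and 4.005 in replicate 2, and rsp-4, the SRSF2 (SC35) gene, with 9.33 in the pool, no summit in replicate 1 and 4.77 in replicate 2. Both pooled values are close to the median of other coding genes, and the rsp-3 summit was nearer to the divergent gene spin-4 (179 bp) than to rsp-3 (217 bp).

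Of the 7 Sm protein genes, which encode the subunits of the ring on the U1, U2, U4 and U5 snRNAs, 6 had a pooled summit, and all 6 were above the median of other coding genes. The exception with no summit was snr-7. The highest signal among the 40 genes was that of snr-4, the SmD2 gene, on chromosome V (11980122 to 11980465). It was 66.4 in the pool (rank 76), 33.4 in replicate 1 (rank 79) and 28.0 in replicate 2 (rank 137), and 99.3% of the other coding genes with a summit were lower. The gene was the only one of the 40 with a summit among the strongest 590 peaks of both replicates. In replicate 2 the strongest summit in the window was not at the same place, and the one within 100 bp of the pooled summit had a signal of 17.7 (rank 436).

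The snr-4 summit lay 571 bp upstream of the gene and was nearer to genes of small RNAs. It was 33 bp past the 3′ end of the snRNA gene C52E4.8 (11980118 to 11980261), which the peak covers almost whole, and 335 bp from the 5′ end of the noncoding RNA gene C52E4.14. C52E4.8 is 144 bp long, and an identical copy, T11F9.15, lies on the same chromosome at 11478148 to 11478291. These were the only 2 exact copies in the nuclear genome, and the copy had no pooled summit in its own window. The part of the snRNA gene in the snr-4 value was not tested.

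The other Sm genes had lower and less even values. The SmD3 gene snr-1 had 20.7 in the pool, 13.4 in replicate 1 and 6.66 in replicate 2, and its summit was 138 bp upstream of the divergent snx-13 and 473 bp upstream of snr-1. The SmD1 gene snr-3 shares its peak (chromosome II, 6489794 to 6490137) with rsp-5, so its values are those given for rsp-5. The summit lies between the divergent 5′ ends, 205 bp from snr-3 and 199 bp from rsp-5. The SmB gene snr-2 had 15.1 (6.67 and 9.44 in replicates 1 and 2), the SmF gene snr-5 had 11.955 (10.5 and 3.66), and the SmE gene snr-6 had 11.0 (5.72 and 5.69). Of these only snr-6 was nearer to the summit than any other gene.

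Among the LSm genes, 6 of 7 had a pooled summit and 3 were above the median of other coding genes. The IDR summit was at lsm-3 (chromosome IV, 13388738 to 13389081), a subunit of both the nuclear and the cytoplasmic LSm ring. Its signal was 35.8 in the pool (rank 356), 15.4 in replicate 1 (rank 699) and 8.39 in replicate 2 (rank 3694), so it was among the strongest 590 of neither replicate. The summit was not at the start of the gene. It lay in an exon, 1707 bp and 1441 bp downstream of the 5′ ends of the longer transcripts, and it counted only because a short annotated transcript starts 66 bp after it.

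The genes that set the LSm rings apart were both below the IDR limit. Of these lsm-8, specific to the nuclear ring on U6, had 16.6 in the pool, 6.15 in replicate 1 and 8.30 in replicate 2. Its summit, 131 bp downstream of the 5′ end and in an intron, was the only one of the 31 that was not upstream. The gene specific to the cytoplasmic ring, lsm-1, had 7.95, 9.90 and 4.73, and its summit lay 82 bp upstream of the ribosomal protein gene rps-9 and 506 bp upstream of lsm-1. The shared subunit genes lsm-4, lsm-6 and lsm-7 each had a summit in only 1 replicate list. lsm-6 had 17.1 in the pool and 10.003 in replicate 2, lsm-4 had 6.94 and 5.50 in replicate 1, and lsm-7 had 6.69 and 4.22 in replicate 2. lsm-5 had no pooled summit.

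The PRP genes were the family most often without a summit: 7 of 13 had one in the pool (53.8%). This share was still not below that of other coding genes (45.4%). The strongest was prp-19, a ubiquitin ligase that gives its name to the complex which activates the spliceosome (chromosome III, 5172499 to 5172842). It had 35.7 in the pool (rank 359), 25.8 in replicate 1 (rank 170) and 14.2 in replicate 2 (rank 797). The summit lay 626 bp upstream of prp-19 but only 49 bp upstream of the divergent gene K10D2.5, and 768 bp upstream of emb-1. A summit given to the nearest gene alone would thus not count for prp-19.

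The next PRP genes were below the IDR limit. prp-40, of the U1 snRNP, had 22.96 in the pool, 10.1 in replicate 1 and 11.98 in replicate 2, with a summit 193 bp upstream. prp-9, an SF3a subunit, had 18.0, 11.2 and 4.75, and its summit was 63 bp upstream of the divergent mrps-18B, a mitochondrial ribosomal protein gene. Both lay in the upper part of the other genes, of which 91.1% were lower than prp-40 and 86% lower than prp-9.

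prp-3, of the U4/U6 snRNP, had 15.7 in the pool, 5.24 in replicate 1 and 7.08 in replicate 2. prp-8, the protein at the catalytic centre of the spliceosome, had 13.9, 5.50 and 6.85. prp-38, which acts in spliceosome activation, had 13.1, 9.31 and 4.59. The lowest of the 31 was prp-39, of the U1 snRNP, with 6.01 in the pool, 7.18 in replicate 1 and 4.13 in replicate 2. The summits of prp-3, prp-38 and prp-39 lay in exons of the genes in front of them, smrd-1, plrg-1 and hmgs-1.

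The SF3b genes sftb-1 and sftb-6 had pooled signals of 13.9 and 14.4, both above the median of other coding genes. In replicates 1 and 2 the values were 6.06 and 8.98 at sftb-1, and 4.28 and 8.45 at sftb-6. The summit at sftb-1, the counterpart of human SF3B1, was 38 bp upstream of the divergent R10E4.1 and 435 bp upstream of sftb-1. The summit at sftb-6 lay between it (155 bp) and the divergent luc-7L3 (222 bp), a LUC7-like gene of the U1 snRNP. Both U2AF genes were below that median. uaf-1, the large subunit, had 6.31 in the pool, 5.66 in replicate 1 and no summit in replicate 2. Its pooled summit was not at the start of the gene. It lay in an intron of uaf-1 itself, 376 bp upstream of a 5′ end inside the gene. uaf-2, the small subunit, had 8.06, 3.89 and 8.17.

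Of the 9 genes with no pooled summit, 6 were PRP genes, namely prp-4, prp-6, prp-17, prp-18, prp-21 and prp-31. The others were snr-7, lsm-5 and sftb-2. In the relaxed lists of single replicates 8 of the 9 had some summit, 3 of them in both replicates, and snr-7 had none in any list. The highest of these values were 4.49 in replicate 1 (prp-4) and 6.95 in replicate 2 (prp-6), where the medians of all 30000 peaks were 5.07 and 4.76. In replicate 2, prp-6 and prp-4 (6.09) were thus above the median peak of that list, and in replicate 1 all 6 genes with a summit were below the median peak.

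Few genes of either group were among the strongest 590 peaks of both replicates. They were 1 of the 31 splicing genes, snr-4 (3.23%), and 257 of the 9058 other coding genes (2.84%). Among the strongest 590 peaks, replicate 1 reached 3 of the 31 genes, snr-4, prp-19 and rsp-6 (9.68%, where 5.01% of other coding genes were reached). Replicate 2 reached 4, snr-4, rsp-7, rsp-1 and rsp-2 (12.9%, beside 4.98%). The pair rsp-1 and rsp-2 is 1 peak. The 31 genes had 29 distinct strongest summits. Of these, 24 had a summit within 100 bp in replicate 1, 23 in replicate 2, 18 in both (62.1%) and none in neither. The replicate value given above belongs to another place than the pooled summit at rsp-3, lsm-1, prp-39 and sftb-6 in replicate 2 and at prp-3 and uaf-2 in replicate 1, where no summit lay within 100 bp. At uaf-1 in replicate 1 the summit within 100 bp had 4.13, and at rsp-8 in replicate 2 it had 7.75. Across the 18, which share their libraries and were picked by pooled signal, Spearman's rho between replicates was 0.19, and it was 0.53 across the 1651 summits of other coding genes matched in both (20.9% of 7912).

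**Figure D3:**
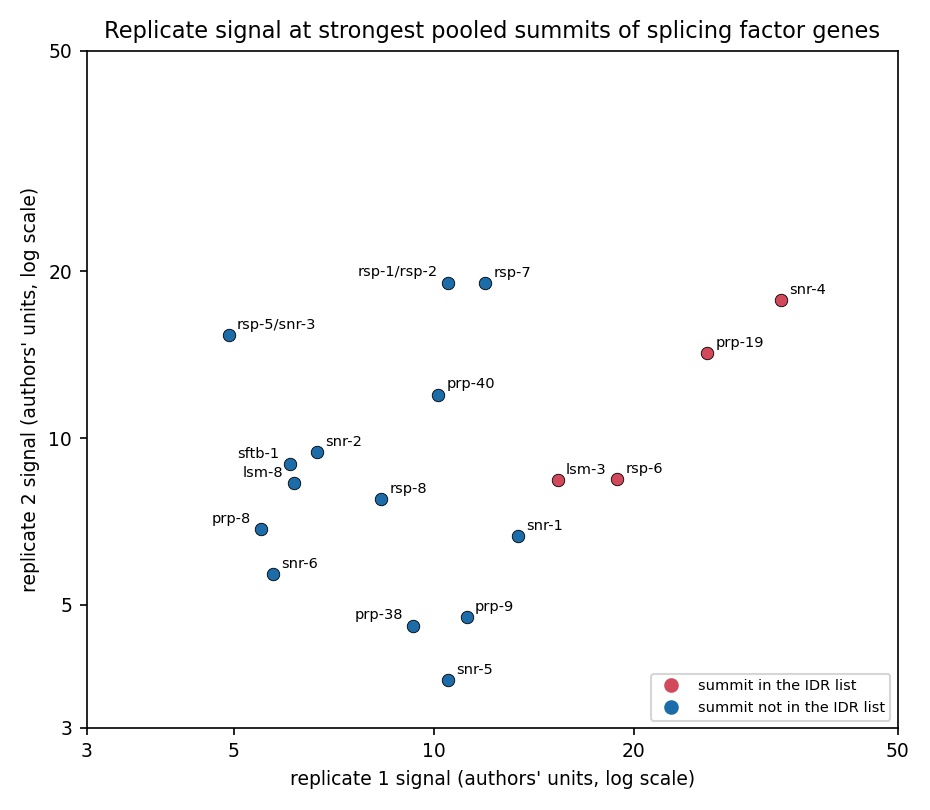
Signal in replicate 1 (x) and replicate 2 (y), both on log axes in the authors' units, at the 18 strongest pooled summits of splicing factor genes that were matched within 100 bp in both replicates. The IDR summits (red) lie to the right, at 15.4 to 33.4 in replicate 1, and those shared by rsp-1 and rsp-2 and by rsp-5 and snr-3 lie high in replicate 2 (19.1 and 15.3) but not in replicate 1 (10.5 and 4.91).

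Most of the strongest summits lay in promoters shared with another coding gene. The summit was also in the promoter window of a second protein coding gene for 22 of 31 splicing genes (71%) and for 2409 of 9058 others (26.6%). Among other coding genes the IDR share was 11% with a shared window and 3.47% without one. Among splicing genes it was 2 of 22 (9.09%) with a shared window and 2 of 9 (22.2%) without one. Each of these 2 shares rests on 2 genes, so neither their order nor their order beside the other genes is read as a result. The part of shared promoters in the overall difference was not tested. The median signal was 16.1 over the 22 and 10.9 over the 2409.

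Some divergent promoters joined a splicing gene to another gene of the splicing machinery, named here after their values were seen. The pairs were rsp-1 with rsp-2, rsp-5 with snr-3, rsp-7 with snu-13 and sftb-6 with luc-7L3. In other pairs the second gene had another role, as with rps-9, mrps-18B, the copper chaperone gene cuc-1 beside snr-5, and the dynactin gene dnc-1 beside lsm-7. Of the 31 genes, 17 (54.8%) were themselves the gene of any kind with the nearest 5′ end, compared with 76.4% of the others. Split by shared coding window, the shares were close, at 40.9% and 44.3% with one and 88.9% and 88% without one. Which gene of a pair a summit serves cannot be told from peak positions.

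The summits were mostly upstream of the nearest 5′ end of the gene. This held for 30 of 31 splicing genes (96.8%) and 71% of other coding genes. At lsm-3 and uaf-1 that 5′ end is inside the gene. Between 100 and 500 bp upstream lay 21 of the 31 (67.7%) and 35% of the others. Among genes whose summit was in a shared coding window, these shares were 81.8% (18 of 22) and 43.7%. Among genes without a shared window they were close, at 33.3% (3 of 9) and 31.8%. The median position relative to the 5′ end was -302 bp, compared with -198 bp. By annotation 22 of the summits were intergenic, 7 lay in exons and 2 in introns, the exons including those of neighbouring genes such as ndx-6 at rsp-4 and ada-2 at lsm-4.

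**Figure D4:**
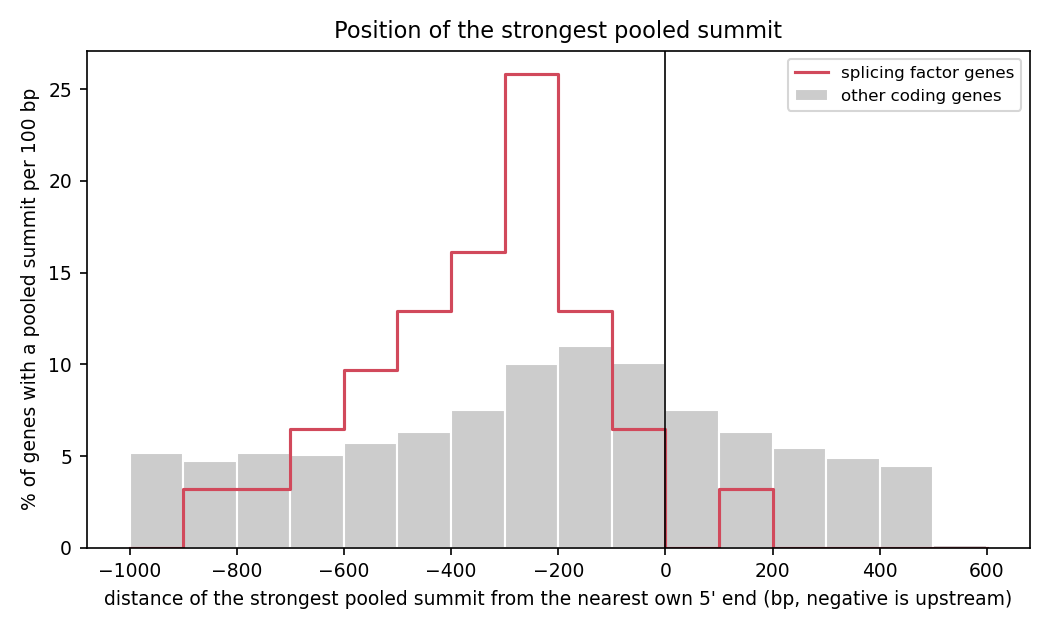
Position of the strongest pooled summit relative to the nearest 5′ end of the gene (x, bp, negative is upstream) as the percentage of genes per 100 bp, for the 31 splicing factor genes (red line) and 9058 other protein coding genes (grey bars). The red line stands highest between 300 and 200 bp upstream, and 1 gene, lsm-8, lies downstream.

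Several members sit close behind another gene on the same strand, as genes inside operons do. The 5′ end was within 500 bp after the 3′ end of such a gene for 8 of the 40 (20%) and for 18.1% of other coding genes. At rsp-6 the summit was shared with the gene in front, C33H5.13. In 3 further cases the gene in front had its own IDR summit outside the member's window. These were plrg-1, itself a splicing factor gene of the Prp19 complex, in front of prp-38 (signal 31.2), hmgs-1, a mevalonate pathway gene, in front of prp-39 (42.6), and sqd-1, an RNA-binding protein gene, in front of lsm-8 (35.1). Their summits lay 2084, 2127 and 2668 bp from the 5′ ends of prp-38, prp-39 and lsm-8. Whether these genes are transcribed together is not given in the annotation used here. How often the gene in front of another coding gene had an IDR summit is not given here, so these cases are only described.

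The 3 other lists of splicing genes lay outside the naming rule. Among 32 matched genes of the core spliceosome, 24 had a pooled summit (median 11.1) and 3 an IDR summit. They were mog-4, the counterpart of the yeast helicase Prp2, with 73.8 in the pool, 37.6 in replicate 1 and 33.6 in replicate 2, then smu-1 (34.4) and plrg-1 (31.2). The list headed snRNP assembly and trans-splicing also holds genes of other roles, acin-1 among them. Of its 15 matched genes, 9 had a pooled summit (median 19.4) and 2 an IDR summit. These were prmt-5 (32.1), whose human counterpart methylates Sm proteins, and acin-1 (30.2). The acin-1 summit was also in the window of cdc-6.

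Of the splicing regulators, 26 of 29 had a pooled summit (median 12.2) and 3 an IDR summit. These were fust-1 (51.3 in the pool, 35.8 in replicate 1 and 16.8 in replicate 2), rsr-1 (44.04) and swp-1 (34.0). The swp-1 summit lay 834 bp upstream of it and in the window of the ribosomal protein gene rpl-23, and that of rsr-1 was also in the window of sri-5. A pooled summit was present at 75%, 60% and 89.7% of the genes in the 3 lists, beside 77.5% of the 40 and 45.4% of all other coding genes. A high pooled share was thus not particular to the 40. The IDR shares of the 3 lists were 12.5%, 22.2% and 11.5% of the genes with a pooled summit, beside 12.9% of the splicing factor genes and 5.48% of all other coding genes. They rest on 2 or 3 genes each, and their differences were not tested. A gene in these lists was never also among the 40.

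None of the motifs searched was found at more than 4 of the 31 genes. The shares of AGGTCA and TTCGCG were close to those of other coding genes. Within 100 bp on either strand, AGGTCA, a motif of nuclear receptors, was found at 2 of the 31 genes, lsm-3 and lsm-4 (6.45%), at 5.05% of other coding genes and at 4.44% of those with an IDR summit. GAGAGA was found at 1, snr-6 (3.23%), beside 15.8% of other coding genes and 30.6% of those with an IDR summit, and the next shares are given in the same order. TGATAA, which GATA factors bind, was found at 4 (12.9%), beside 19.6% and 10.3%. TTCGCG was found at rsp-4 and rsp-6 (6.45%), beside 6.79% and 17.1%. CACGTG, an E-box, was found at none of the 31, beside 3.79% and 4.44%. The median GC content of these stretches was 39.8%, and 35.8% for the other genes. No match says only that these letters are not in this window.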

How the data were processed

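Per the labels and the deposited inventory texts, the authors made relaxed peak lists from the alignments of each replicate and of both together, with a control alignment as further input. The IDR list was made from those 3 lists. No source used here gives the aligner, the caller, any version or the cut-off of the IDR. The deposited signal values are the authors' enrichment per peak and were used only to rank and describe peaks within a list. Read depth is unknown, so no interval is given. The 590 IDR peaks were checked to be the 590 highest pooled peaks. The 4 ce11 lists were used. The ce10 lists were not used here, for lack of an annotation of that assembly.

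Coordinates are 1-based, and genes and transcripts came from Ensembl release 115 (WBcel235, the sequence of ce11). All 30000 pooled peaks ended inside the chromosomes. Assignment of summits was tested on simulated data with planted positions. Python 3.11.15, pandas 2.3.3, numpy 2.4.6, scipy 1.17.1 and matplotlib 3.10.9 were used. The members and the lists were chosen with earlier results of these data known. Genes named were those with an IDR summit, the 10 highest and 3 lowest pooled signals, those in the strongest 590 peaks of a replicate and those with no pooled summit, and from the other lists those with an IDR summit. Other genes, neighbours included, were named after their values were seen. Of 35, 18 and 30 symbols in the core, assembly and regulator lists, 3, 3 and 1 were not matched.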

Additional observations from a re-analysis of the deposited data

How the results depend on the processing

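With 500 bp on either side as the window, IDR summits were found at 2 of 26 splicing genes (7.69%, others 5.43%), and with each summit given only to the nearest gene of any kind at 2 of 19 (10.5%, others 3.73%). The first setting loses snr-4 and prp-19, which lie 571 and 626 bp upstream. With the stronger 295 IDR peaks there was 1, and with 1180 pooled peaks 8. Using each replicate alone gave 3 to 4. All other settings gave 3 or 4, with 3 when only the outermost 5′ end was used, which drops lsm-3. The share of other coding genes with an IDR summit was 5.48% and moved to 6.46% with 1000 bp upstream only, 4.46% with the nearest coding gene and 4.46% without genes that share the summit with a noncoding gene. It was 2.97% with the stronger 295 peaks, 9.74% with 1180 pooled peaks, 4.98 to 5.01% with each replicate alone and 2.49% over all genes. Over the settings that recomputed it, the median signal of splicing genes ran from 13.9 to 15.4 and that of other genes from 9.18 to 9.63. The count of splicing genes among the strongest peaks of both replicates was 1, snr-4, with summits matched within 100 or 200 bp, and 0 within 50 bp. The ranks of single genes rest on 2 libraries.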

Other observations

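More than 1 pooled summit lay in the promoter windows of 11 of the 31 splicing genes with any (35.5%) and of 2741 of 9058 other coding genes (30.3%). The most was 4, at prp-40, whose 3 annotated 5′ ends give a window of 3165 bp, where the median window was 1501 bp in both groups. There the summits had signals of 22.96, 9.56, 9.14 and 6.37, at -193, -105, 300 and -706 bp from the nearest 5′ end, where negative is upstream. At snr-5 the second summit was almost as strong as the first, with 11.8 at 342 bp downstream beside 11.955 at 751 bp upstream. The same held for rsp-8, with 12.2 at 241 bp downstream beside 13.1. At lsm-3 a second summit of 21.1 lay 200 bp downstream of the nearest 5′ end.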
